A study of Mus musculus with 30 samples.

Results

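Otx2, Zic2, Sox3, Foxd3 and Pou3f1 are 5 transcription factors of the epiblast, and their expression was followed through chemical and factor-based reprogramming of mouse cells. They were chosen by gene symbol, and each is represented by 1 probe on the array, so the set holds 5 of 23629 genes or unnamed probes measured. Levels are intensities, that is, the brightness of a probe on a linear scale, and differences are on the log2 scale, where 1 is a 2-fold change. Each column of values is 1 sample, which the authors averaged over 3 arrays in sets 1, 2 and 4 and over 2 arrays in sets 3 and 5. The 30 samples belong to 5 sets that the authors normalized separately, so levels were compared within a set, and fitted differences carry a term for the set. A level of 1 probe cannot be set against that of another probe, and differences between cultures and between RNA preparations of 1 line cannot be told apart.

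After implantation the mouse epiblast leaves the naive state of pluripotency, passes through a formative stage and becomes primed for lineage choice. Otx2 and Pou3f1 (Oct6) rise early in that step, Otx2 directing Oct4 to new enhancers, and both later pattern or drive neural tissue. Zic2 is a zinc-finger factor that binds enhancers poised for activation, Foxd3 is a forkhead factor needed to maintain the epiblast and to decommission naive enhancers, and Sox3 is the X-linked relative of Sox2 in the SoxB1 group. Embryonic stem cells kept on feeders in serum-type medium are a mixture of naive cells and cells on their way to the primed state, and in such cultures Otx2 and other factors of this kind are known to vary from cell to cell.

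The somatic group had 7 samples, which were the embryonic fibroblasts (MEF) MEF1, WT MEF, MEF2 and MEF3, neonatal fibroblasts (MNF), adult lung fibroblasts (MAF) and stem cells of adult fat (ADSC). Pluripotent cells induced with chemicals (CiPSC) had 11 samples, each a line made with small molecules whose cocktail is given as a code of letters: CiPS34 (VC6TFMP+Z), MNF CiPS7 (VC6TFS+Z), CiPS50 (VC6F+Z) and CiPS21 (VC6TFDBS+Z) in set 1, MNF CiPS1 (VCT6FMDBR+Z), MAF CiPS3 (VC6TFDM+Z), CiPS45 (FC6+Z) and ADSC CiPS2 (VC6TFMPS+Z) in set 2, CiPS WT1 and CiPS WT2 (both VC6TFMPS+Z) in set 3, and a CiPSC control (VC6TF+Z) in set 5. Lines without a cell of origin in their name came from MEF, and those of set 3 from fibroblasts labelled wild type. ADSC CiPS2 is an adipose-derived line by its title, while its source is given as adult lung fibroblasts. OSKM iPS1 (set 1) and OSKM iPS2 (set 2) are iPSC of MEF made with Oct4, Sox2, Klf4 and Myc, and the 2 SKM-FSK iPSC lines of set 4, also of MEF, carry the code F and were made without Oct4. Embryonic stem cells (ESC) had 5 samples, ESC1, ESC3, ESC4 and ESC5 of line R1 and ESC2 of line TT2, with 1 ESC sample in each set. Days 12, 20 and 32 of treatment of MEF had 1 sample each in set 5, day 12 under VC6TF and days 20 and 32 under VC6TF+Z. All pluripotent lines were grown on a layer of mitomycin C-treated MEF in ESC medium, so fibroblast RNA from the feeders can be in every one of them, and somatic cells were grown in DMEM with fetal bovine serum. Mouse strain and passage are not given in the labels used here.

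The defining pluripotency markers separated somatic from pluripotent samples in sets 1 to 4 and only partly in set 5. Esrrb read at least 10500 in every pluripotent sample of the 5 sets and at most 91 in every somatic one. Sox2 read at least 9180 in the pluripotent samples of sets 1, 3 and 4, but 34.2 and 41.1 in ESC5 and the CiPSC control of set 5. Tfcp2l1 likewise read at least 5860 in sets 1 to 4 and at most 18.7 in these 2 samples, and Pou5f1 (Oct4) read 24.2 in the CiPSC control and 140 in ESC5 against 61 in MEF3. Some gaps were narrow in sets 1 and 2. Nanog read 158 in ESC1 against 81.8 in MEF1, and 140 in MNF CiPS1 against 105 in MNF. The lowest pluripotent Pou5f1 of set 2 was 598, against 437 in ADSC. MEF3 was low in some fibroblast markers of its own set, with Twist1 at 120 against 6860 at day 12 and Lum at 81.3 against 18900. Of 12 such markers 8 were at least 2-fold higher at day 12 than in MEF3 and 1 at least 2-fold lower. The lower one was Pdgfrb, at 3800 in MEF3 and at most 2.83 in every other sample of the set. Prrx1 (8850 against 10700) and Vim (39900 against 45600) were close. Set 5 therefore goes against its labels for some probes, and the fitted differences are given with and without it. The deposited values carry no detection call, so whether a low value lies above background was not determined here.

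The members lie on chromosomes 14, 4 and X of GRCm38.p6. Otx2 spans 48656781 to 48667644 and Zic2 122475384 to 122480328 on chromosome 14, Foxd3 spans 99656299 to 99658671 and Pou3f1 124657646 to 124660655 on chromosome 4, and Sox3 spans 60891366 to 60893430 on the X chromosome. All 5 are protein-coding, and the place of a probe within its gene was not analysed here. The 250 bases before the start sites of Foxd3 and Otx2 are shown, in gene orientation, from the RefSeq table of the same build. These genes are shown because no other member had a window there. RefSeq windows matched 2 of the 5 members, Foxd3 with 1 start and Otx2 with 4 starts, of which the first listed is shown. Capitals mark the cyclic AMP response element TGACGTCA.
Foxd3, chr4:99656049-99656298, plus strand: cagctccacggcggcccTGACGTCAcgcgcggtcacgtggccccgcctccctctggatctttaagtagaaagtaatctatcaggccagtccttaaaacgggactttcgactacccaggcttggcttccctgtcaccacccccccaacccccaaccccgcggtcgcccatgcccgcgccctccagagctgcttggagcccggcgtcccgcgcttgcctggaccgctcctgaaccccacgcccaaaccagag
Otx2, chr14:48667645-48667894, minus strand: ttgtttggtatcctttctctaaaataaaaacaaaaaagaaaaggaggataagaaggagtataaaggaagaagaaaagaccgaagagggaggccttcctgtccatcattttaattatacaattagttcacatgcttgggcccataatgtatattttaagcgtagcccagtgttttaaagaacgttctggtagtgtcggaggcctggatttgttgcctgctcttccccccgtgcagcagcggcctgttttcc
The Foxd3 window was GC-rich (65.6%) and held the element once, ending 225 bases before the start, and 1.55% of all 32851 windows of 250 bases held it. The Otx2 window had 42% GC and held none of the 4 motifs searched on both strands, which were TGACGTCA, the bicoid-type letters TAATCC (6.25% of windows), the octamer ATGCAAAT (1.6%) and the SOX-type letters ACAATG (10.7%). These motifs do not overlap each other in the windows shown, and TAATCC was present once, as its reverse complement, in the window of the third listed Otx2 start. The motifs were chosen with the sequences in view, and a match is a description of letters.

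**Figure D1:**
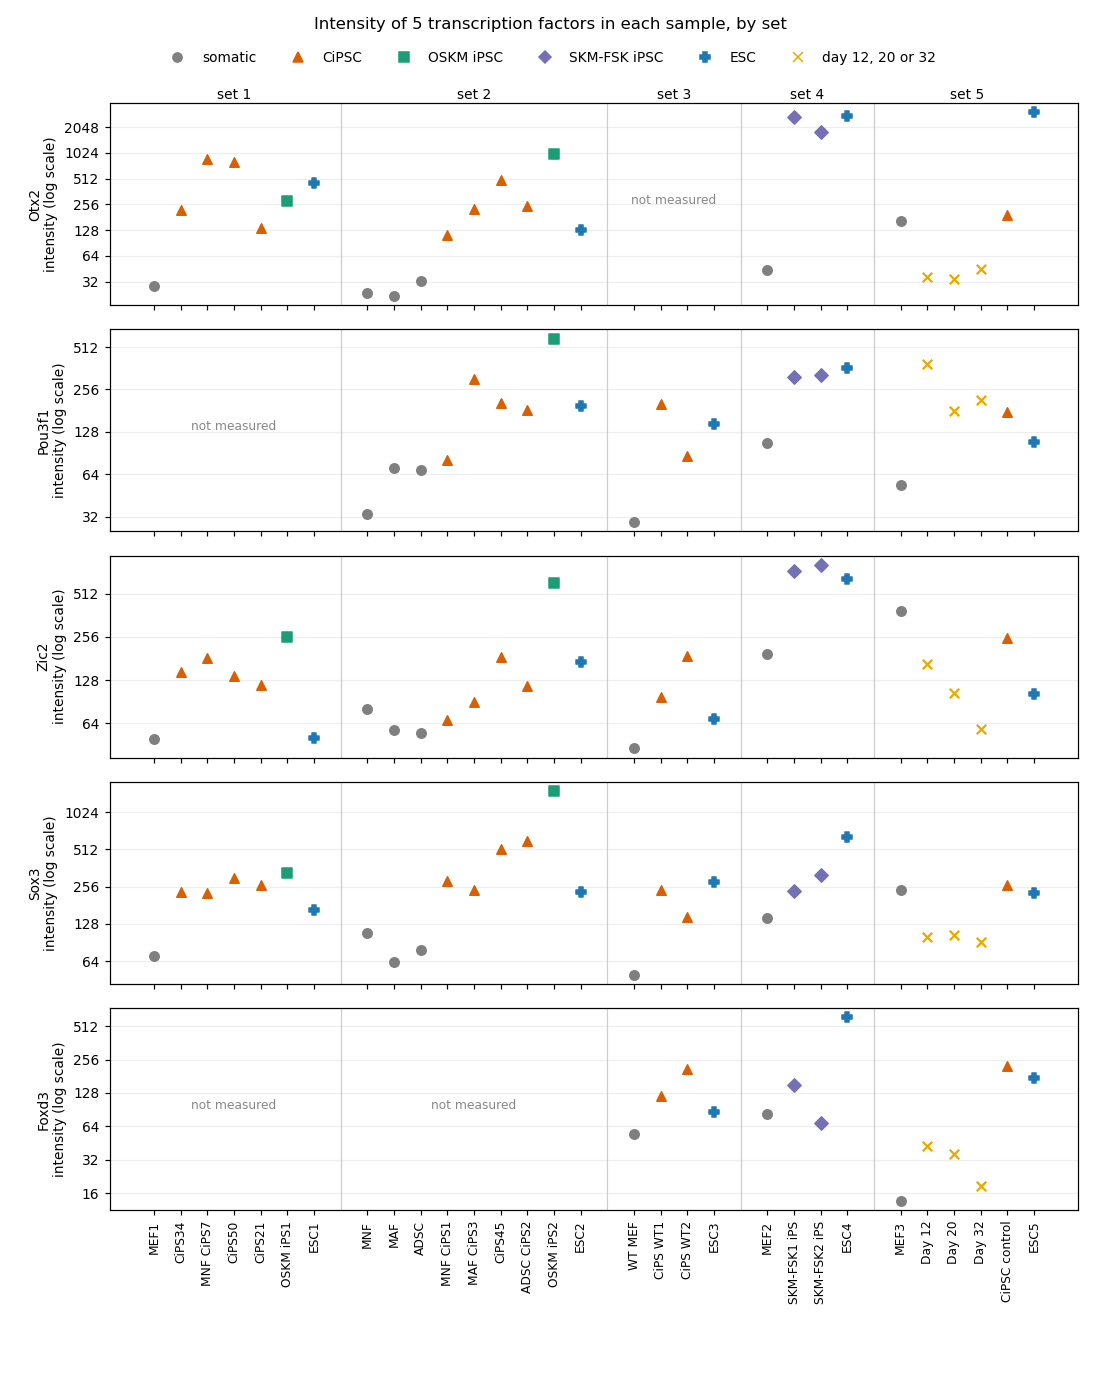
Intensity on a log scale (vertical axis) of each of the 5 genes in every sample (horizontal axis), grouped by set, with symbols for the group; each point is 1 deposited sample. Within each set every pluripotent sample lies above the somatic samples in Otx2, and OSKM iPS2 has the top value of set 2 in all 4 genes measured there.

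Otx2 had the largest fitted difference of the 5 genes between ESC and somatic cells, and it was higher in every pluripotent sample than in the somatic samples of its set. It was measured in 26 samples, those of sets 1, 2, 4 and 5. In set 1 MEF1 read 28.5, while CiPS34 read 217, MNF CiPS7 860, CiPS50 806, CiPS21 134, OSKM iPS1 280 and ESC1 451. In set 2 MNF read 23.8, MAF 21.7 and ADSC 32.1, against 113 in MNF CiPS1, 228 in MAF CiPS3, 491 in CiPS45, 247 in ADSC CiPS2, 1000 in OSKM iPS2 and 128 in ESC2. The somatic and pluripotent samples of these sets did not overlap, and the somatic values ranked between the 0.285 and the 2.69 percentile of all probes of their samples. In set 4 MEF2 read 43.9, SKM-FSK1 iPS 2690, SKM-FSK2 iPS 1810 and ESC4 2740. In set 5 MEF3 read 164, the CiPSC control 190 and ESC5 3060. The CiPSC control thus lay near MEF3 rather than near ESC5, and MEF3 ranked at the 56.3 percentile of its own probes.

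CiPSC exceeded somatic cells in Otx2 by 3.16 ± 0.61 log2 (SE, 9 against 6 samples, adjusted p = 3.7e-04 with limma), and ESC exceeded them by 4.10 ± 0.72 (4 against 6 samples, adjusted p = 1.8e-04). In bulk RNA, fewer cells that express a gene and less of its RNA per cell cannot be told apart. Within sets the CiPSC difference was 3.72 in set 1, 3.21 in set 2 and 0.21 in set 5. Without set 5 the fitted difference was 3.69 ± 0.58 for CiPSC and 3.90 ± 0.71 for ESC, and both stayed past the threshold. The exact permutation test within sets gave two-sided p = 0.00286 for CiPSC and 0.0312 for ESC, each the smallest its arrangements allow. The same somatic samples serve both comparisons, so the 2 results are not independent, and this holds for each member below.

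Pou3f1 was measured in the 23 samples of sets 2 to 5 and was also higher in every pluripotent sample than in the somatic cells of its set. In set 2 MNF read 33.4, MAF 70.9 and ADSC 68.8, against 80.2 in MNF CiPS1, 303 in MAF CiPS3, 204 in CiPS45, 184 in ADSC CiPS2, 589 in OSKM iPS2 and 195 in ESC2. The gap was narrow for MNF CiPS1, which lay just above MAF. In set 3 WT MEF read 29.2, CiPS WT1 203, CiPS WT2 85.5 and ESC3 146, and in set 4 MEF2 read 107, the SKM-FSK lines 312 and 326 and ESC4 363. In set 5 MEF3 read 54, the CiPSC control 178 and ESC5 108. The fitted difference from somatic cells was 1.78 ± 0.33 log2 for CiPSC (7 against 6 samples, adjusted p = 3.4e-04) and 1.71 ± 0.37 for ESC (4 against 6, adjusted p = 0.00176). The CiPSC difference was 1.67, 2.17 and 1.72 in sets 2, 3 and 5. Without set 5 the fitted differences were 1.79 ± 0.35 and 1.93 ± 0.41, and both stayed past the threshold.

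Zic2 separated somatic from pluripotent cells least. It was measured in all 30 samples. In set 1 MEF1 read 49.9 and ESC1 50.9, while CiPS34 read 146, MNF CiPS7 184, CiPS50 136, CiPS21 118 and OSKM iPS1 257. All reprogrammed lines of set 1 thus lay above both MEF and ESC. In set 2 MNF read 80.2, MAF 57.4 and ADSC 54.7, against 67.8 in MNF CiPS1, 90.8 in MAF CiPS3, 185 in CiPS45, 117 in ADSC CiPS2, 605 in OSKM iPS2 and 171 in ESC2, and MNF CiPS1 overlapped the somatic samples. In set 3 WT MEF read 42.9, CiPS WT1 98.1, CiPS WT2 188 and ESC3 68.3. In set 4 MEF2 read 194, the SKM-FSK lines 732 and 815 and ESC4 650. In set 5 the order turned, with 387 in MEF3, 253 in the CiPSC control and 103 in ESC5.

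For Zic2 the CiPSC difference from somatic cells was 1.06 ± 0.34 log2 (11 against 7 samples, adjusted p = 0.0153), just past the 2-fold threshold. Leaving out WT MEF, CiPS WT2, MEF2 or ESC4 moved it to between 0.95 and 0.97, below 2-fold, and leaving out set 5 moved it to 1.33 ± 0.29. With limma the adjusted p rose above 0.05 without set 1 (0.84 ± 0.41, adjusted p = 0.136) and without set 3 (0.93 ± 0.38, adjusted p = 0.069). It also did so with MEF as the only somatic samples (1.01 ± 0.46, adjusted p = 0.0921) and without both CiPS WT lines (0.95 ± 0.37, adjusted p = 0.0503). The exact permutation test within sets gave two-sided p = 0.0114 for a within-set difference of 0.91, which is below 2-fold. ESC differed from somatic cells by 0.41 ± 0.40 (5 against 7 samples, adjusted p = 0.424), with a 95% interval from -0.41 to 1.23. Without set 5 that difference was 0.90 ± 0.36 (adjusted p = 0.0532).

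Sox3 was higher in all 11 CiPSC samples than in the somatic samples of their sets. In set 1 MEF1 read 70.4 against 231 in CiPS34, 226 in MNF CiPS7, 299 in CiPS50, 266 in CiPS21, 331 in OSKM iPS1 and 165 in ESC1. In set 2 MNF read 108, MAF 63.4 and ADSC 78.9, against 284 in MNF CiPS1, 239 in MAF CiPS3, 521 in CiPS45, 599 in ADSC CiPS2, 1520 in OSKM iPS2 and 232 in ESC2. ESC was the lowest pluripotent sample of both sets. In set 3 WT MEF read 49.9, CiPS WT1 242, CiPS WT2 145 and ESC3 282, and in set 4 MEF2 read 143, the SKM-FSK lines 235 and 317 and ESC4 644. In set 5 MEF3 (240), the CiPSC control (262) and ESC5 (227) lay close together. The fitted differences from somatic cells were 1.88 ± 0.30 log2 for CiPSC (11 against 7 samples, adjusted p = 2.5e-05) and 1.57 ± 0.35 for ESC (5 against 7, adjusted p = 0.00114). Without set 5 they were 2.14 ± 0.27 and 1.89 ± 0.32. The exact permutation test within sets gave two-sided p = 9.5e-04 for CiPSC, the smallest possible, and 0.0312 for ESC.

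Foxd3 was measured in only 14 samples, those of sets 3 to 5. In set 3 WT MEF read 54.9, CiPS WT1 120, CiPS WT2 212 and ESC3 86. In set 4 MEF2 read 82.8, SKM-FSK1 iPS 152, SKM-FSK2 iPS 68.6 and ESC4 615, and in set 5 MEF3 read 13.7, the CiPSC control 225 and ESC5 175. CiPSC and ESC lay above the somatic sample of each set, while SKM-FSK2 iPS lay below MEF2. The fitted difference from somatic cells was 2.82 ± 0.65 log2 for CiPSC (3 against 3 samples, adjusted p = 0.00694) and 2.41 ± 0.60 for ESC (3 against 3, adjusted p = 0.0121). Without set 5 the CiPSC comparison could not be fitted under the rule on sets, and the ESC difference was 1.77 ± 0.65 (adjusted p = 0.0757). The ESC call was also lost without MEF2 or ESC4 (2.16 ± 0.77, adjusted p = 0.0652) and without ESC5 (2.07 ± 0.71, adjusted p = 0.0576). The exact permutation test within sets cannot go below p = 0.167 for CiPSC and 0.25 for ESC with so few samples, and gave these values.

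Counted together, 5 of 5 members were called higher in CiPSC than in somatic cells, where 28% of all 16497 genes tested were called in either direction and 14.8% higher. In ESC 4 of 5 were called higher, against 29.3% of 16509 genes in either direction and 15.1% higher, and Zic2 was the one not called. The median difference of the members was 1.88 for CiPSC and 1.71 for ESC, beside -0.11 and -0.10 over all genes. The CiPSC count was 4 without MEF3 or without set 5, where Foxd3 could not be tested, and 3 without WT MEF, where Zic2 also fell below 2-fold. The ESC count was 3 without set 5, where Foxd3 lost its call. Fibroblast markers moved in the opposite direction, as 7 of 9 tested were lower in CiPSC and 9 of 9 in ESC (3 of 3 and 7 of 8 without set 5), and their part in these values was not tested.

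**Figure D2:**
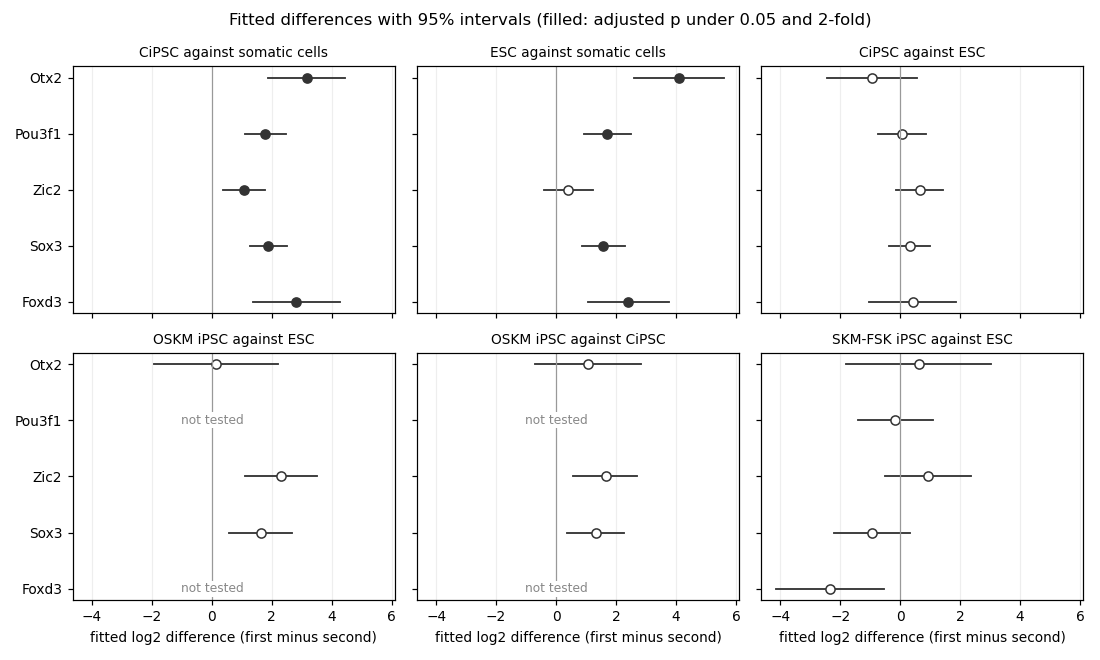
Fitted log2 differences (horizontal axis, first group minus second) of the 5 genes in 6 comparisons, with 95% intervals as lines; filled points passed the threshold. Points are filled for all 5 genes in CiPSC against somatic cells and for 4 in ESC against somatic cells, and all points of the other 4 comparisons are open.

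CiPSC and ESC were not separated by any member, but the intervals were wide and individual lines were not alike. Among all genes 5 of 16497 were called (0.0303%), and none of the 5 members was among them (0 called, 819 genes at an unadjusted p under 0.05 with limma). Otx2 differed by -0.94 ± 0.71 log2 (CiPSC minus ESC, 9 against 4 samples, adjusted p = 1), with a 95% interval from -2.43 to 0.55. That estimate rested on set 5, where the CiPSC control was 16.1-fold below ESC5, and without set 5 it was -0.21 ± 0.70. Zic2 differed by 0.65 ± 0.38 (interval -0.14 to 1.44), Sox3 by 0.31 ± 0.33 (-0.39 to 1.00), Foxd3 by 0.41 ± 0.65 (-1.05 to 1.87) and Pou3f1 by 0.07 ± 0.38 (-0.74 to 0.87), each with an adjusted p of 1. Without set 5 Zic2 differed by 0.43 ± 0.34, Sox3 by 0.25 ± 0.31 and Pou3f1 by -0.14 ± 0.42, and Foxd3 could not be fitted. With this number of samples, differences up to the bounds of these intervals are not excluded.

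The direction of the CiPSC difference from ESC depended on the set for each member except Foxd3. Zic2 was higher in CiPSC by 1.50 in set 1, 0.99 in set 3 and 1.30 in set 5, each against R1 cells, and lower by 0.67 on average in set 2, where the ESC line was TT2. In total 8 of 11 CiPSC samples lay above the ESC sample of their set in Zic2 and 9 of 11 in Sox3. The 2 exceptions in Sox3 were CiPS WT1 and CiPS WT2, with an average difference of -0.59, against 0.62 in set 1 and 0.71 in set 2. In Otx2 5 of 9 CiPSC samples lay above their ESC and 4 below, and in Pou3f1 4 of 7 lay above and 3 below. The ESC line and the set cannot be told apart, because TT2 was hybridised in set 2 alone.

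**Figure D3:**
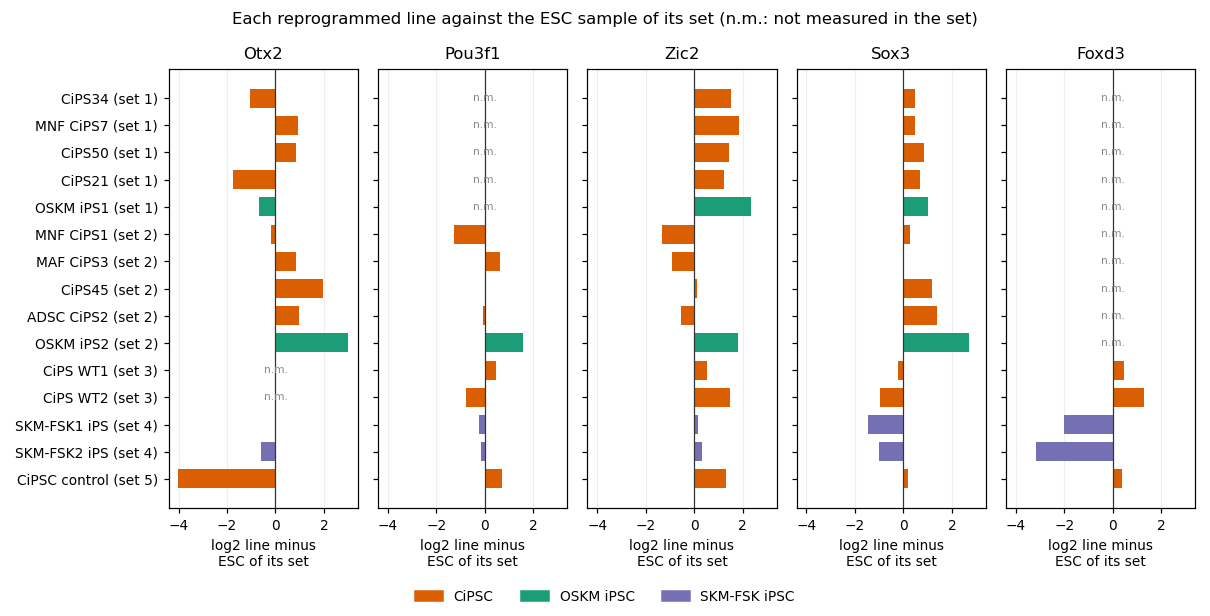
Log2 intensity of each reprogrammed line minus that of the ESC sample of its set (horizontal axis), for the 5 genes; bars are single samples, coloured by the kind of line. OSKM iPS2 has the longest bar to the right of set 2 in Otx2, Pou3f1, Zic2 and Sox3, the CiPSC control the longest to the left in Otx2, and both SKM-FSK lines lie to the left in Foxd3 and Sox3.

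Lines made with the 4 factors showed the highest Zic2 and Sox3 of their sets. OSKM iPS1 and OSKM iPS2 lay above all 4 CiPSC lines and the ESC sample of their set in both genes. OSKM iPS2 was also highest of set 2 in Otx2 (1000) and Pou3f1 (589), while OSKM iPS1 lay within the CiPSC range of set 1 in Otx2. The fitted difference from ESC was 2.29 ± 0.58 log2 for Zic2 (2 against 5 samples, unadjusted p = 6.4e-04, adjusted p = 0.429 with limma) and 1.63 ± 0.51 for Sox3 (adjusted p = 0.582). The 95% intervals ran from 1.09 to 3.50 and from 0.57 to 2.68. Otx2 differed by 0.14 ± 0.99 (-0.69 in set 1 and 2.96 in set 2), and neither Pou3f1, measured in 1 of the 2 sets, nor Foxd3 could be tested. Without set 5 the differences were 2.04 ± 0.49 for Zic2, 1.50 ± 0.45 for Sox3 and 0.62 ± 0.90 for Otx2. None of the members passed the threshold, which 0.0175% of the 11406 genes tested did.

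Against CiPSC, OSKM iPSC were higher by 1.65 ± 0.51 log2 in Zic2 (2 against 11 samples, adjusted p = 0.645) and by 1.32 ± 0.45 in Sox3 (adjusted p = 0.763), and without set 5 by 1.61 ± 0.42 and 1.25 ± 0.38. No gene of 11406 was called in this comparison (0%), while 630 had an unadjusted p under 0.05 with limma. The exact permutation test within sets gave two-sided p = 0.04 for Zic2 and for Sox3, the smallest its 25 arrangements allow, and p = 0.4 for Otx2. These p-values are for single genes and are not adjusted for the number of genes. Within sets the Zic2 difference was 0.83 in set 1 and 2.49 in set 2, and the Sox3 difference was 0.38 and 1.99, so set 2 held the larger part of both. The summed intensity of the 3 fibroblast markers measured in set 2 was 779 in OSKM iPS2 and 225 to 2140 in the CiPSC lines, and that of the 3 primitive streak markers was 700 and 522 to 848. Of the single streak markers, Lhx1 was highest in OSKM iPS2, at 387 against 214 to 267 in the other 5 pluripotent samples, while Mixl1 (58.5) was the lowest of the 6 and Gsc (254) lay between the others. The part of other cell types in the Zic2 and Sox3 values was not tested.

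Both SKM-FSK lines lay below the ESC sample of their set in Foxd3 and Sox3. Foxd3 read 152 and 68.6 against 615 in ESC4, a difference of -2.59 log2 within set 4. The fit over all sets gave -2.35 ± 0.80 (2 against 3 samples, 95% interval -4.15 to -0.55, unadjusted p = 0.016, adjusted p = 1 with limma), and -2.03 ± 0.73 without set 5. Sox3 differed by -0.94 ± 0.61 in the fit and -1.24 within the set. Otx2, Zic2 and Pou3f1 lay within 1.52-, 1.25- and 1.17-fold over the 3 pluripotent samples of set 4. Their fitted differences were 0.62 ± 1.16, 0.92 ± 0.69 and -0.16 ± 0.60, and without set 5 they were 0.72 ± 1.02, 0.67 ± 0.57 and -0.27 ± 0.59, with Sox3 at -1.10 ± 0.52. For Otx2 the sign within the set was the opposite (-0.32). None of the members was called, beside 0.00615% of the 16260 genes tested. With 1 ESC sample in the set, the difference in Foxd3 cannot be told apart from a high value in ESC4, and the exact test cannot go below p = 0.333.

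Among the pluripotent lines of a set the members mostly varied more than the median gene, and which of them varied most depended on the set. In set 1 the SD of Otx2 over 6 lines was 1.07 log2, at the 97.4 percentile of all genes, where the median gene had 0.39. MNF CiPS7 (860) and CiPS50 (806) lay well above CiPS34 (217) and CiPS21 (134), a range of 6.43-fold among 4 CiPSC lines. Zic2 was at the 90.9 percentile there, and at the 34.9 percentile over the 4 CiPSC lines alone. Sox3 had an SD of 0.36 (42 percentile), and lay at the 16.5 percentile over the CiPSC lines alone. In set 2 all 4 genes measured had a wide spread, Otx2 with an SD of 1.19 at the 96.9 percentile, Zic2 at 95.9, Sox3 at 94.7 and Pou3f1 at 92.3, beside 0.44 for the median gene. OSKM iPS2 was the highest line in each, and over the 4 CiPSC lines alone the percentiles were 86.9, 69.6, 72.6 and 83.9. In set 3 the 4 genes measured lay between the 81.2 and the 92.2 percentile. In set 4 Foxd3 (99.7) and Sox3 (96.3) stood high, while Otx2 was at 72.4, Zic2 at 32.1 and Pou3f1 at 18.1. In set 5, with the CiPSC control and ESC5 alone, Otx2 was at 99, Zic2 at 87.2 and Pou3f1 at 64.5. Foxd3 (37.2) and Sox3 (21.9) varied less than the median gene there. MNF CiPS1 was the lowest CiPSC line of set 2 in Otx2, Zic2 and Pou3f1, and its Sox3 (284) lay between the others. No test was made of these spreads, since each line is 1 sample.

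The 2 lines of set 1 with high Otx2 also had the highest summed intensity of the 3 primitive streak markers measured there, Mixl1, Gsc and Lhx1, of the 6 fixed. That sum was 930 in MNF CiPS7 and 932 in CiPS50, against 612 in CiPS34, 534 in CiPS21, 575 in OSKM iPS1 and 709 in ESC1. Gsc carried the difference, at 682 in both lines against 292 to 472 in the other 4. Mixl1 was highest in CiPS50 (64.2) and below ESC1 (48.6) in MNF CiPS7 (48), and Lhx1 was highest in OSKM iPS1 (223, against 200 and 185). The sum of the 3 early neural markers measured in set 1 was also highest in these lines, at 2420 and 2210 against 855 to 1960. Tubb3 carried that difference (1900 and 1590 against 400 to 1320), while Sox1 was highest in CiPS21 (269) and Nes in ESC1 (1130). In set 2 the order differed, since MAF CiPS3 had the highest streak sum (848) with an Otx2 of 228, and CiPS45 the lowest (522) with 491. The highest neural sum there was that of MNF CiPS1 (787), with an Otx2 of 113. The part of other cell types in the Otx2 values was not tested. In set 3 fibroblast markers were high in CiPS WT1 and CiPS WT2, where 9 of 12 were measured and summed to 43700 and 51000, against 18600 in ESC3 and 170000 in WT MEF.

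During chemical treatment in set 5 the members took separate courses, and only Pou3f1 was over 2-fold above the starting cells at each of the 3 days. These courses rest on set 5 alone, where some probes go against the labels, and whether the probes of the members do so was not tested. Pou3f1 read 54 in MEF3, 389 at day 12, 179 at day 20, 217 at day 32, 178 in the CiPSC control and 108 in ESC5, so day 12 held the highest of the 6 values. Otx2 read 164 in MEF3 and 36.5, 34 and 44.8 at days 12, 20 and 32, below MEF3 at each day. Zic2 stepped down from 387 through 165 and 105 to 58.8. Sox3 read 240 in MEF3 and 101, 104 and 91 at the 3 days. Foxd3 read 13.7 in MEF3, 42.3 at day 12, 35.9 at day 20 and 18.6 at day 32, which is low throughout beside 225 in the CiPSC control.

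At day 12, 2 of the 5 members were more than 2-fold above MEF3 and 3 were more than 2-fold below it, beside 24.9% and 31.5% of 23609 genes. Between day 32 and the CiPSC control 4 of 5 were more than 2-fold higher, where 21.1% of genes were, and 0 were lower, where 19.4% of genes were. Foxd3 was 12.1-fold higher, Zic2 4.31-fold, Otx2 4.24-fold and Sox3 2.88-fold, whereas Pou3f1 was 1.22-fold lower. Each day is 1 sample and no test was made. The fall of Otx2, Zic2 and Sox3 from MEF3 rests on that 1 sample, in which they ranked at the 56.3, 68 and 61.7 percentile of all probes. Other somatic samples are in other sets and cannot stand in for it.

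Markers of other cell types moved strongly over the same days. The 5 extraembryonic endoderm markers summed to 4170 in MEF3, 3530 at day 12, 8680 at day 20 and 19900 at day 32, and to 1890 in the CiPSC control and 1810 in ESC5. Gata4 read 7180 and Gata6 12000 at day 32, which made up most of that sum. Sox7 and Dab2 were also higher at day 32 (337 and 152) than in MEF3 (9.92 and 6.58). Sox17 did not follow, at 241 in MEF3, 222 at day 32, 1090 in the CiPSC control and 814 in ESC5. The 12 fibroblast markers summed to 89200 in MEF3, 227000, 182000 and 161000 at the 3 days, and 25200 and 19900 in the CiPSC control and ESC5. Early neural markers moved in both directions. Sox1 read 72.1 in MEF3, 250, 266 and 369 at the 3 days, 755 in the CiPSC control and 751 in ESC5, and Pax6 went from 55.3 through 170, 197 and 164 to 487 and 480. Nes, which mesenchymal cells also express, read 2100 in MEF3, 1550, 1520 and 871 at the 3 days, 78.2 in the CiPSC control and 363 in ESC5, and Tubb3 went from 190 through 477, 474 and 177 to 1260 and 429. The 4 summed to between 1580 and 2580 over the 6 samples. The part of these cells in the courses of the 5 members was not tested.

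**Figure D4:**
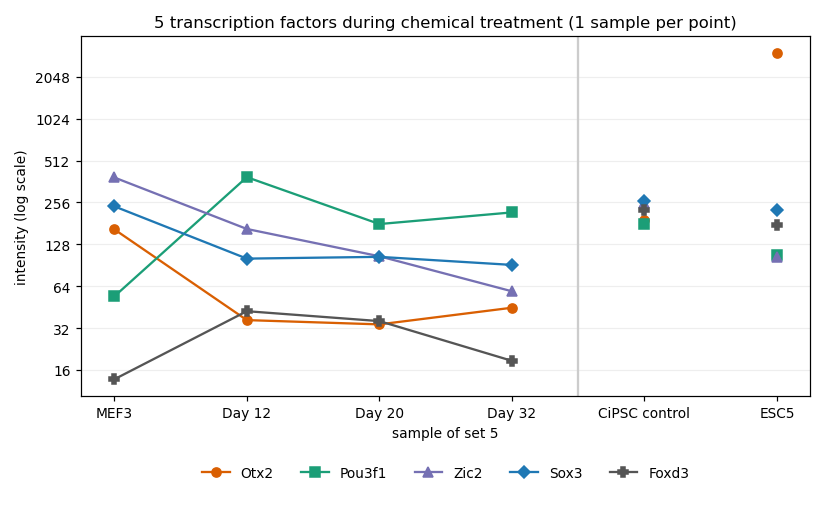
Intensity on a log scale (vertical axis) of the 5 genes in the 6 samples of set 5, with lines joining MEF3 and days 12, 20 and 32; each point is 1 sample. Pou3f1 peaks at 389 on day 12, Zic2 falls from 387 to 58.8, and Foxd3 stays at or below 42.3 until the CiPSC control.

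Other genes of the formative and primed state did not move as a block. Of 15 such genes listed, 10 could be tested, and in CiPSC 4 were called higher and 1 lower than in somatic cells. The higher ones were Dnmt3b, a de novo DNA methyltransferase (4.43 ± 0.37 log2), the ETS factor Etv5 (2.58 ± 0.30), the kinase gene Pim2 (2.22 ± 0.51) and the growth factor gene Fgf15 (1.03 ± 0.25). Sox4, also expressed in mesenchyme, was the lower one (-2.70 ± 0.45). In ESC the same comparison gave 4 higher and 3 lower, the latter Sox4 (-2.64 ± 0.53), N-cadherin Cdh2 (-2.32 ± 0.47) and Sall2 (-1.12 ± 0.32). The list's median was 0.89 in CiPSC and 0.75 in ESC. Between CiPSC and ESC 0 of 10 were called. Without set 5, 3 of 8 tested were higher and 1 lower in CiPSC, and 5 of 10 higher and 4 lower in ESC. Fgf5, Lef1 and Sox11 were measured but could not be tested. Fgf5 read 90.3 in MEF2 against 26.1 to 39.2 in the pluripotent samples of set 4. In set 5 it read 88.6 in MEF3, 15.7 in the CiPSC control and 11.5 in ESC5. Lef1 went the other way, at 17.7 against 88.3 to 165 in set 4, and at 2.75, 26.5 and 38.4 in set 5. Sox11, measured in set 5 alone, read 36.5, 9.67 and 7.75 in the same order.

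Naive-state genes were higher together with the members. All 13 tested of 14 listed were called higher in CiPSC and in ESC than in somatic cells, with medians of 3.50 and 3.69. In set 5 itself 2 of them went against this, as Tfcp2l1 read 14.6 in MEF3, 18.7 in the CiPSC control and 17.3 in ESC5, and Nr0b1 (Dax1) read 352, 124 and 131. Without set 5 the same 13 were called higher in both comparisons, with medians of 3.86 and 4.29. Esrrb differed by 8.64 ± 0.22 in CiPSC, Fgf4 by 8.53 ± 0.25 and Zfp42 (Rex1) by 7.32 ± 0.33. The 13 gave 0 calls between CiPSC and ESC, with or without set 5, where the orphan receptor gene Nr5a2 differed by -1.98 ± 0.45 (adjusted p = 0.197) and Klf2 by 0.92 ± 0.40 (adjusted p = 0.947). Of 12 primitive streak genes listed, 6 could be tested, with 0 calls in CiPSC against somatic cells and 0 in ESC. Their medians were -0.01 and 0.01, and again 0 of 6 were called in each without set 5. Eomes, which could not be tested, read 43.7 in MEF2 against 551 to 794 in the pluripotent samples of set 4. In set 5 it read 15.6 in MEF3, 278 in the CiPSC control and 443 in ESC5. Of the 11 streak genes measured in set 5, 1 was at least 2-fold higher in the CiPSC control than in MEF3 and 8 were at least 2-fold lower.

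Close relatives of the members differed among themselves. Of 16 listed, 7 could be tested in CiPSC against somatic cells, and 2 were higher and 3 lower. The SoxB1 relatives of Sox3 were higher, Sox2 by 5.20 ± 0.85 (with the probe near the somatic level in set 5) and Sox1 by 1.77 ± 0.30. Zic1, the relative of Zic2, was lower by a wide margin (-4.72 ± 0.41), and so were Foxd2 (-1.52 ± 0.45) and Foxd1 (-1.27 ± 0.49), relatives of Foxd3 with roles in mesenchyme. Otx1, the relative of Otx2, differed by 1.03 ± 0.59 (adjusted p = 0.183). In ESC 2 of the 7 were higher, Sox2 (5.01 ± 0.88) and Sox1 (1.80 ± 0.36), and 2 lower, Zic1 (-4.89 ± 0.43) and Foxd1 (-1.77 ± 0.57). Of 12 early neural genes 9 were tested in CiPSC against somatic cells, and 3 were higher, En2 (3.33 ± 0.27), Sox1 and Tubb3 (1.60 ± 0.45), and 2 lower, Zic1 and Nes (-1.99 ± 0.44). Without set 5 Sox2 was higher in CiPSC by 6.64 ± 0.33 and Sox1 by 1.47 ± 0.26, Zic1 was lower (-4.55 ± 0.36), Foxd1 was no longer called (-1.26 ± 0.54, adjusted p = 0.0639 with limma), and Otx1 and Foxd2 could not be fitted. In ESC Otx1 was then called higher (1.88 ± 0.39) and Foxd2 lower (-1.78 ± 0.44), beside the 4 named above. Tubb3 lost its call in CiPSC (1.28 ± 0.50, adjusted p = 0.0553 with limma).

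The genes whose pattern was most like that of each member were found by Pearson correlation of log2 values less the mean of each set, as a description over samples that share sets and processing. Over the pluripotent samples, Otx2 was most like Cyp7b1 (r = 0.867), Tmc5 (0.860) and Ppp1r1a (0.857), over 17 samples and among 10938 genes. Zic2 was most like Uty (r = 0.896 over 14 samples), Maml1 (0.880) and B3galt6 (0.870, both over 20), and Sox3 most like Dnajb3 (0.913), Zbtb22 (0.880) and Nop16 (0.879), over 14 samples. Pou3f1 was most like Alas1 (0.941), Tiparp (0.905) and Mmp24 (0.891), over 14 samples. Foxd3 shared too few samples for this. Over all samples the highest were Tkt (0.924) for Otx2, Gdf3 (0.868) for Zic2, 1810009A15Rik (0.918) for Sox3 and Nefl (0.872) for Pou3f1, over 26, 30, 21 and 23 samples.

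Among the members themselves, Zic2, Sox3 and Pou3f1 ran most alike over the pluripotent samples, with r = 0.54 for Zic2 and Sox3 (20 samples), 0.59 for Zic2 and Pou3f1 (14) and 0.61 for Sox3 and Pou3f1 (14). Otx2 followed Zic2 with r = 0.19 over 17 samples and Sox3 with r = 0.40. OSKM iPS2, which was high in all 4, is among the samples behind each of these values. They are given as descriptions with no test.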

How the data were processed

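Cy5-labelled total RNA from each of the 30 samples was read on Phalanx whole-genome arrays, per the labels. The values are linear intensity, deposited by the authors as 1 column per sample, and 5 sets were normalized separately, per the series' design text. For scanner software, background correction and probe filter the sources used here give nothing. Whether the arrays of a sample were separate cultures is not stated, so p-values measure the spread between samples. The number of samples limits the precision.

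Of 26420 probes with values, 21873 carried 1 gene symbol and 4547 none, and 21822 matched RefSeq (GRCm38.p6). Intensities were converted to log2 with no floor applied, and the smallest deposited value was 1e-04. The probe measured in most samples stood for a gene, then the one with the highest mean. limma 3.58.1 in R 4.3.3 (the data.table package, 1.17.8) was fitted to all 30 samples with group and set as terms, with the Benjamini-Hochberg adjustment taken over every gene tested in a comparison. A call needed an adjusted p under 0.05 and 2-fold. A gene was tested where 2 or more sets with both groups had values for it (1 set for SKM-FSK iPSC) and 3 residual degrees of freedom remained, a rule set once missing values had been seen. Intervals are 95%. The fit was also run on simulated data, whose results are not given here. Those data held no differences between sets, so they do not test the set term.

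The members and gene lists were chosen with earlier results of these data known. The text names all members, up to 6 genes of each list per comparison (called genes with the largest difference first, otherwise up to 2 not called) and the 3 genes most like each member. Nr0b1, Tfcp2l1, Fgf5, Lef1, Sox11 and the single marker genes of other cell types were named after their values were seen. The pathway lists overlap, since Zic1 and Sox1 are in 2 of them. Alternatives are given in the closing section.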

Additional observations from a re-analysis of the deposited data

Results flagged for a closer look

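Otx2 in MEF3 (164) stood apart from the other 5 somatic samples in which it was measured, the next highest being 43.9 in MEF2. Levels of different sets are set side by side here, which the separate normalization does not support. Of 15 groups examined in this way 1 stood apart, and chance gives about 1 in 20.

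In Sox3 all 4 CiPSC lines of set 1 lay above their ESC sample (average difference 0.62 log2) and all 4 of set 2 likewise (0.71), whereas both lines of set 3 lay below theirs (-0.59). The difference between sets was not tested, and each set has 1 ESC sample.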

How the results depend on the processing

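The count of 5 members called in CiPSC against somatic cells was 3 with no set term, with only the 2 groups in the fit, without set 3 and without both CiPS WT lines, the last chosen after seeing the data. It ran from 3 to 5 with each sample left out in turn. The ESC count of 4 ran from 3 to 4 and was 0 under the replicate block, which adds the number in the sample titles as a term. The titles do not say whether those numbers pair samples, and equally numbered MEF and ESC samples lie in different sets except for the first. Their residuals correlated at -0.33, -0.11 and 0.38. These correlations cannot decide it, because the group and set terms tie the residuals of a small set together. MEF2 and ESC4, which share a set but not a number, correlated at -1, and MEF3 and ESC5 at -0.9. Under the replicate block Zic2 in ESC against somatic cells was -0.21, Otx2 and Pou3f1 in CiPSC against ESC 0.05 and -0.18, and Sox3 in SKM-FSK iPSC against ESC 0.48, signs opposite to the values above. With no set term the sign turned for Foxd3 (-0.23) and Pou3f1 (-0.18) in CiPSC against ESC, Otx2 in OSKM iPSC against ESC (-0.66) and Pou3f1 in SKM-FSK iPSC against ESC (0.80). Without set 5 Pou3f1 in CiPSC against ESC was -0.14, and it ran from -0.15 to 0.24 with single samples left out, negative without MAF CiPS3, CiPS WT1, the CiPSC control or ESC5. Otx2 in SKM-FSK iPSC against ESC ran from -0.32 to 0.90, negative without MEF2. The cause of these changes was not tested. Counts over all genes moved by over 1.5 times in ESC against somatic cells (4838 to 3067 with only the 2 groups), CiPSC against ESC (5, range 0 to 101), OSKM iPSC against ESC (2, range 0 to 3), OSKM iPSC against CiPSC (0, up to 2) and SKM-FSK iPSC against ESC (1, range 0 to 17). Members above the median SD of all genes, summed over sets, numbered 16, and 9 with CiPSC lines alone. The totals behind these counts differ, since sets 4 and 5 do not hold 2 CiPSC lines, so the smaller count does not show a smaller share. By the definition of a median, as many of all genes lie above it as below it. Foxd3 at day 32 was 0.22 above MEF3 with values under 16 set to 16, against 0.44. Of the counts under alternatives, 260 equalled the reported count, 18 differed from it by up to 1.5 times and 7 by more. Of single values, 1166 kept their direction and their side of the threshold or, for the days of treatment, moved little, and 22 lost their call.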
